A study of Mus musculus with 9 samples.

Results

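The Ly6 family surface proteins were followed as 10 genes, Ly6a, Ly6c1, Ly6c2, Ly6d, Ly6e, Ly6g, Ly6g6c, Ly6h, Ly6i and Ly6k. They are 10 of the 16 symbols starting with Ly6 among the 18984 genes that the files list, and each was found by its exact symbol in every library. RNA came from the whole lung of C57BL/6 mice, the strain shared by all groups. Mice had received fragments of Aspergillus fumigatus hyphae, the filamentous form of this mould, Aspergillus fumigatus conidia, its inhaled spores, or normal saline as the control. The material was given into the trachea and the lungs were taken 24 hours later, with 3 poly(A) libraries per group and 9 in all. Whether each library stands for its own animal is not stated in the labels. The p-values thus describe the spread among these 9 samples, and part of it may be technical. The genes were chosen from the family with their FPKM levels and group differences in these 9 libraries already known. The values below therefore describe them, and the adjusted p-values only say where each gene stood in the fit over all 13761 genes tested.

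Ly6 proteins are small surface proteins built around the LU domain, a three-finger fold held together by disulphide bonds, and most of them are tied to the outer membrane by a glycosylphosphatidylinositol (GPI) anchor. Several are everyday antibody markers in mouse work. Ly6a is the stem cell antigen Sca-1, also found on endothelium, the Ly6c proteins mark inflammatory monocytes and some endothelium, and Ly6g marks neutrophils. Interferons induce several members, among them Ly6a and Ly6e.

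The deposited values were FPKM, fragment numbers scaled by transcript length and library size, so levels of different genes can be compared. Summed FPKM per library ran from 492540 to 561250. The level of the median gene was 3.60 to 4.05 FPKM for hyphae, 5.21 to 6.05 for conidia and 5.88 to 6.33 for control. On the log2(FPKM + 1) scale the median difference of all genes was −0.37 for hyphae against control, −0.07 for conidia against control and −0.29 for hyphae against conidia. Differences are therefore also given rescaled, that is with every library divided by its median-of-ratios factor, which moves the median gene to about 0. The lung markers Sftpc, of alveolar type 2 cells, and Ager, of alveolar type 1 cells, reached at least 10141 and 975 FPKM in every library.

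Coding sequences show how far short reads within them can separate the members, and the 4 genes that pair off most closely are printed for that reason. Untranslated parts of the members were not compared. All 10 were found in GENCODE vM21, with 10 to 13 cysteine codons each, and all lie on chromosome 15 apart from Ly6g6c on chromosome 17. Over aligned coding bases, Ly6a, Ly6c1, Ly6c2, Ly6g and Ly6i were 78.0 to 97.7% identical to each other. Every pair with another member was 46.1 to 53.0% identical. Ly6c1 and Ly6c2 shared 387 of 396 bases, and the first 240 bases of each, with the 6 differences in capitals, read:
Ly6c1: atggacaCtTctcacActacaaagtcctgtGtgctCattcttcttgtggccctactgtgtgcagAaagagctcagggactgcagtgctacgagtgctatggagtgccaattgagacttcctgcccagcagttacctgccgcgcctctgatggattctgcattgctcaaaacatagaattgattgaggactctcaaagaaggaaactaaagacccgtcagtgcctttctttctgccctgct
Ly6c2: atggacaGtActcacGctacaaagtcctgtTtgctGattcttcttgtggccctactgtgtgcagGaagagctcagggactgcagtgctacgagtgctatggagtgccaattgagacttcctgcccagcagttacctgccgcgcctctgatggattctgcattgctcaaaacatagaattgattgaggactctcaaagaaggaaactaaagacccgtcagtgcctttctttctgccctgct
Ly6a and Ly6i were 86.4% identical, with 30 differences, in capitals, over the same stretch:
Ly6a: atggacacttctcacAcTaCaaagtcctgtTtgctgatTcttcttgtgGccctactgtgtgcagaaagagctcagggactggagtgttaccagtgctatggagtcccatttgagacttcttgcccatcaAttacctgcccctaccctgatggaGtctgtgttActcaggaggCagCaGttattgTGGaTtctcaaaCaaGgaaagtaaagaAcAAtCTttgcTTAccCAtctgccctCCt
Ly6i: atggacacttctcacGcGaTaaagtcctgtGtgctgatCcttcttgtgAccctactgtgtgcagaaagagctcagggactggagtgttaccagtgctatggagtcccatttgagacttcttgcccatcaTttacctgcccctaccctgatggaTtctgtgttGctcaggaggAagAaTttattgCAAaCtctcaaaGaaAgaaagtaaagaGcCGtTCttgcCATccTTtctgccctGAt
Of all 60-base windows of coding sequence, 42.1% of those in Ly6c1 and 42.1% of those in Ly6c2 also occurred in a transcript of another gene. The share was 8.96% for Ly6a, 6.07% for Ly6i, 2.46% for Ly6k and 0 for Ly6d, Ly6e, Ly6g, Ly6g6c and Ly6h. How the authors assigned fragments that fit several genes was not given in the sources used here, so the split between Ly6c1 and Ly6c2 in particular is uncertain.

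**Figure D1:**
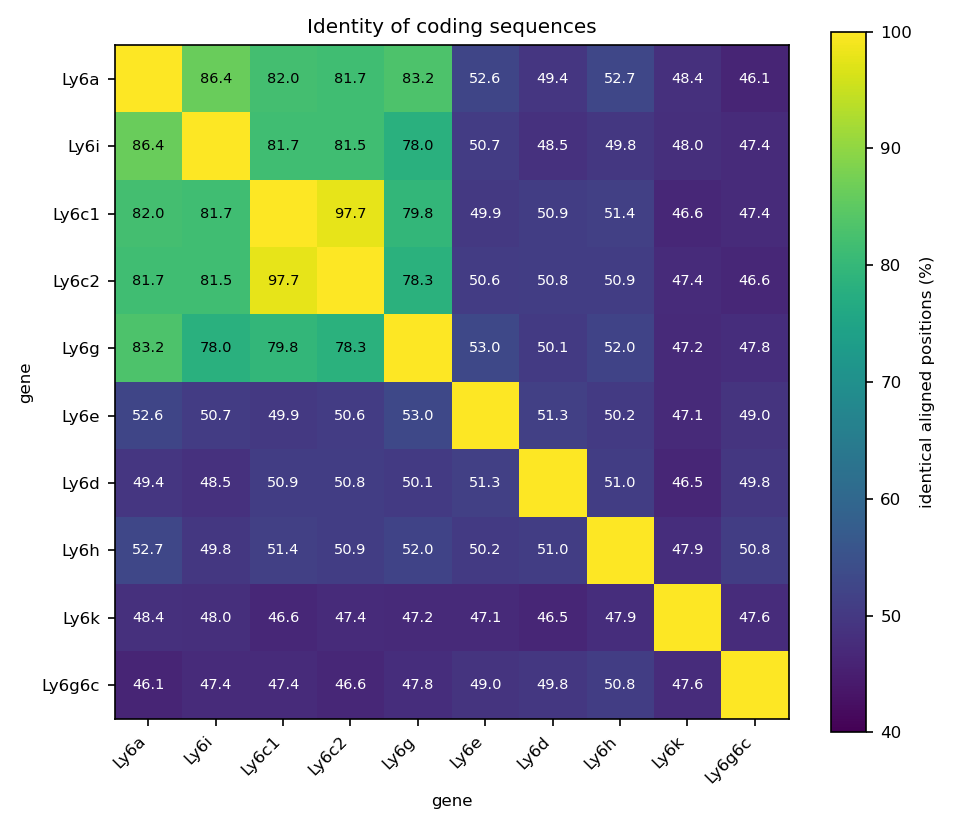
Identity between the coding sequences of each pair of the 10 Ly6 genes, in percent of aligned positions (GENCODE vM21). Ly6a, Ly6i, Ly6c1, Ly6c2 and Ly6g form a block at 78.0 to 97.7%, and the other pairs lie between 46.1 and 53.0%.

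Ly6a, Ly6c1 and Ly6e together made up 95.4 to 98.4% of the summed FPKM of the 10 genes in each library. The 10 genes held 0.362 to 0.407% of all FPKM in hyphae libraries, 0.344 to 0.536% in conidia libraries and 0.202 to 0.261% in control libraries. In hyphae lungs the means ran in the order Ly6c1, Ly6e, Ly6a, Ly6c2, Ly6g, Ly6d, Ly6g6c, Ly6i, Ly6k and Ly6h, and in conidia lungs in the order Ly6e, Ly6c1, Ly6a, Ly6i, Ly6c2, Ly6d, Ly6g, Ly6g6c, Ly6k and Ly6h. In control lungs the order of mean levels was Ly6e, Ly6a, Ly6c1, Ly6d, Ly6c2, Ly6g6c, Ly6i, Ly6k, Ly6g and Ly6h. The controls' Ly6d and Ly6c2 ranges overlapped, and so did those of Ly6i and Ly6k and those of Ly6g and Ly6h. In hyphae libraries Ly6g, Ly6d, Ly6g6c and Ly6i overlapped with each other, Ly6c2 with Ly6g, and Ly6e with Ly6c1 and Ly6a. In conidia libraries Ly6d overlapped with Ly6i, Ly6c2, Ly6g and Ly6g6c. There Ly6i also overlapped with Ly6c2, Ly6g6c with Ly6g and Ly6k, and Ly6e with Ly6c1. Ly6a and Ly6c1 had overlapping ranges in the hyphae libraries and in the conidia libraries, while in control libraries every Ly6a value lay above every Ly6c1 value.

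**Figure D2:**
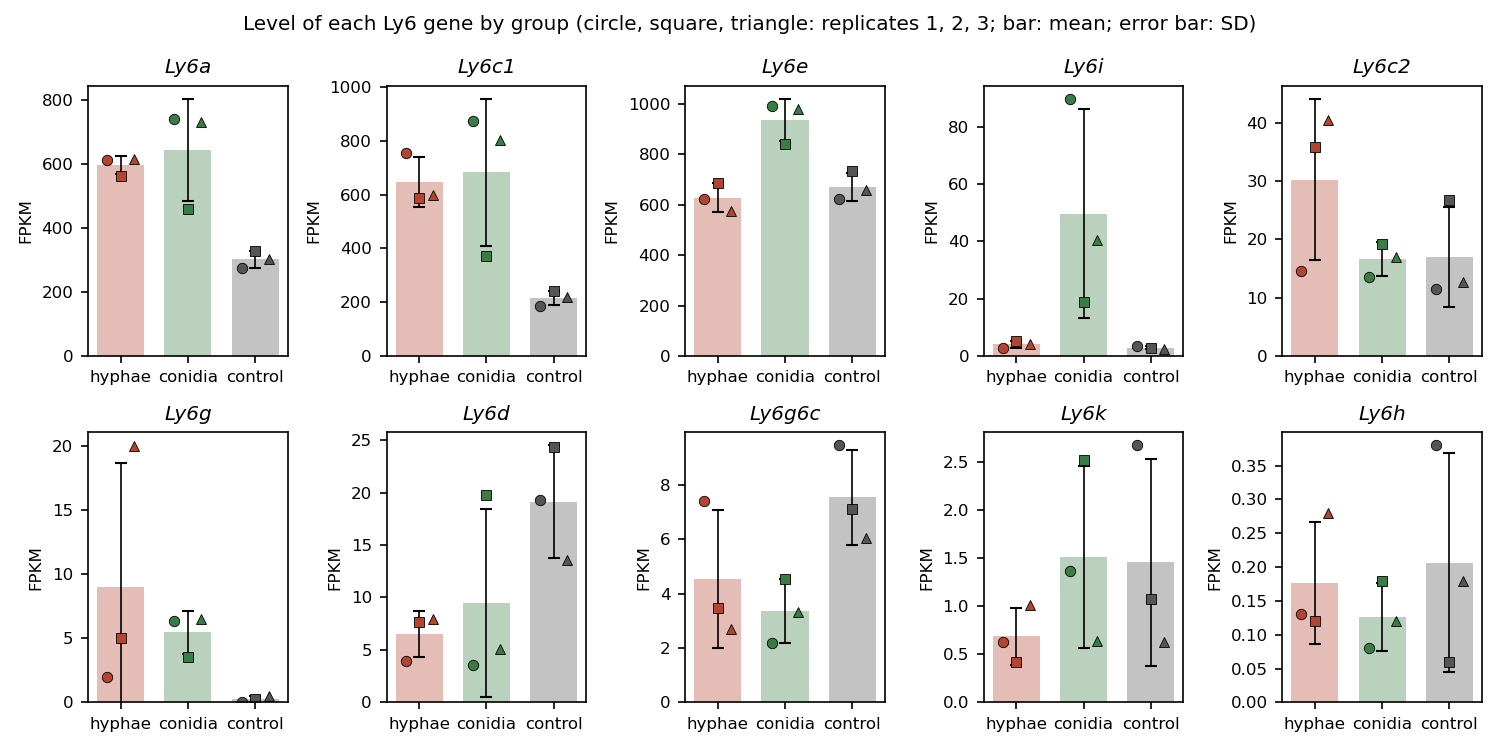
FPKM of the 10 Ly6 genes in hyphae, conidia and control libraries (points are libraries, bars are means and error bars SD, n = 3). Ly6a and Ly6c1 stand above control in both fungal groups, Ly6i is high in conidia libraries, at 18.7 to 89.7 FPKM, and Ly6d is highest in control libraries on average, at 19.1 FPKM.

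Ly6a and Ly6c1, the members most tied to endothelium and progenitor cells, lay above every control library in every hyphae and conidia library. Ly6a averaged 598 ± 29.3 FPKM after hyphae, 644 ± 160 after conidia and 303 ± 26.8 after saline, and Ly6c1 averaged 647 ± 92.8 FPKM after hyphae, 683 ± 273 after conidia and 216 ± 27.2 after saline (SD, n = 3 each). Ly6a had 612, 564 and 617 FPKM in hyphae libraries 1, 2 and 3, then 743, 460 and 731 FPKM in the conidia libraries and 276, 330 and 303 FPKM in the control libraries. All 6 fungal libraries lay above all 3 control libraries, and the hyphae values fell within the range of the conidia values. The log2 difference was 0.98 (SE 0.18, adjusted p = 0.00135) for hyphae against control and 1.06 (SE 0.18, adjusted p = 0.0470) for conidia against control. Rescaled, the conidia difference was 1.15 and missed the threshold (adjusted p = 0.0594). Without single libraries the adjusted p for conidia was 0.163 and 0.160 without control 1 and control 2, 0.111 without control 3, 0.161 and 0.217 without conidia 1 and conidia 3, 0.0983 and 0.0549 without hyphae 2 and hyphae 3, and 0.000899 without conidia 2. The rise after hyphae passed without any single library, with an adjusted p of at most 0.00628. Between hyphae and conidia Ly6a differed by −0.08 (SE 0.18, adjusted p = 0.743), with a rescaled difference of the other sign, 0.26. Without conidia 2 that difference was −0.30 (adjusted p = 0.0483).

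Ly6c1 had 753, 586 and 600 FPKM in hyphae libraries, 875, 371 and 805 FPKM in conidia libraries and 187, 242 and 220 FPKM in control libraries. Again no fungal library overlapped with control, and conidia 2 was the lowest of the fungal libraries. The log2 difference was 1.57 (SE 0.30, adjusted p = 0.00168) for hyphae against control. It was also 1.57 (SE 0.30) for conidia against control, where the adjusted p was 0.0557 and the threshold was missed. Without conidia 2 the conidia difference was 1.96 (adjusted p = 0.000642), and without hyphae 1 its adjusted p was 0.0491. Between hyphae and conidia the difference was 0.01 (SE 0.30, adjusted p = 0.986). In bulk lung, more cells of a type and more RNA per cell cannot be told apart.

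Markers of lung endothelium were counted beside these genes. Of 18 tested, 5 were called higher and 4 lower for hyphae against control, where 14.9% of all genes were called higher and 50.0% lower. When rescaled 8 were higher and 3 lower, beside 30.0% and 29.3% of all genes, and the list's median was 0.51 in place of 0.09. For conidia against control, where 0.596% and 0.0945% of all genes were called, 0 of the 18 passed in limma. With so few calls over all genes, the 0 does not set the list apart. Genes with an unadjusted p under 0.05 numbered 1555 to 4014 of 13761 in fits without 1 library. No such count over all genes is given for the full fit, where 4 of the 18 markers had such a p. Their summed level was 2581 to 2909 FPKM after hyphae, 2634 to 2995 after conidia and 1940 to 2797 after saline, and none was at 0 in any library. After hyphae the caveolar lipase carrier Gpihbp1, itself an LU domain protein, was higher by 0.92 and the water channel Aqp1 by 0.99, whereas Sox18, a transcription factor of vessel formation, differed by −4.68 and the receptor Calcrl by −2.50. The part of endothelial cells in the Ly6a and Ly6c1 values was not tested.

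The myeloid members behaved differently from one another. Ly6c2, the Ly6C gene of inflammatory monocytes, had 14.5, 35.8 and 40.4 FPKM in hyphae libraries, 13.6, 19.3 and 17.0 FPKM in conidia libraries and 11.5, 26.8 and 12.6 FPKM in control libraries. The 3 groups overlapped. The log2 difference was 0.77 (SE 0.41, adjusted p = 0.123) for hyphae against control and 0.06 (SE 0.41, adjusted p = 0.946) for conidia against control. The hyphae difference passed when rescaled (1.18, adjusted p = 0.0402), without hyphae 1 (1.22, adjusted p = 0.0106) and without control 2 (1.14, adjusted p = 0.0353). As a share of the summed Ly6c1 and Ly6c2 level, Ly6c2 held 1.89, 5.76 and 6.31% in hyphae libraries, 1.53, 4.94 and 2.07% in conidia libraries and 5.77, 9.99 and 5.44% in control libraries. The larger part of the pair's signal was thus assigned to Ly6c1 in every library. For hyphae against conidia Ly6c2 differed by 0.72 (SE 0.41, adjusted p = 0.163), or by 1.16 (adjusted p = 0.0153) without hyphae 1. Among 16 markers of monocytes and recruited macrophages, 1 was called higher and 7 lower for hyphae against control, or 4 and 5 when rescaled. Of all genes 14.9% were called higher and 50.0% lower there, or 30.0% and 29.3% when rescaled. For conidia against control 0 of the markers were called in limma, beside 0.596% and 0.0945% of all genes. Of the markers 9 had an unadjusted p under 0.05, a count given without its background over all genes. Their summed level was 653 to 784 FPKM after hyphae, 833 to 1245 after conidia and 602 to 678 after saline, with none at 0. In hyphae libraries much of this sum came from Ace, at 234 to 300 FPKM, and Chil3, at 103 to 196 FPKM. The list's median difference for hyphae against control was −0.43, beside −0.37 over all genes, so the sum does not describe the list. The part of these markers in the Ly6c2 level was not tested. For hyphae against control the chemokine receptor Ccr2 of those monocytes differed by −2.60, and the endotoxin co-receptor Cd14 was higher by 1.74 (adjusted p = 0.0280).

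Ly6g, the neutrophil antigen, was near 0 in saline lungs and detectable in all fungal libraries. It had 1.97, 5.02 and 20.0 FPKM in hyphae libraries and 6.39, 3.53 and 6.51 FPKM in conidia libraries, while in control libraries it was listed at 0, 0.24 and 0.49 FPKM. The groups did not overlap with control, and hyphae libraries spread over a wider range than conidia libraries. Its log2 difference, understated at such levels by the added 1, was 2.56 (SE 0.60, adjusted p = 0.00505) for hyphae against control and 2.36 (SE 0.60, adjusted p = 0.0933) for conidia against control. Ly6g passed the filter on low values only through the fungal libraries, where it is high. The conidia difference passed without hyphae 1 (adjusted p = 0.0441), without hyphae 3 (adjusted p = 0.0301) and in a fit of the 2 groups alone (adjusted p = 0.0359), and the hyphae difference was 1.78 without hyphae 3. The hyphae call was kept without any single library, with an adjusted p of at most 0.0206. Because of how Ly6g passed the filter, these values only describe it and add no support to the call.

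Other neutrophil markers ran alongside Ly6g. Of 18 tested, 13 were called higher and 1 lower for hyphae against control, or 14 and 1 when rescaled. The shares of all genes were 14.9% and 50.0%, or 30.0% and 29.3% when rescaled. Among those called higher, Il1r2 had 0.98, 0.81 and 0.77 FPKM in control libraries and Trem1 0.60, 0.76 and 0.85 FPKM. Like Ly6g, both passed the filter on low values only through the fungal libraries, so their calls only describe them. For conidia against control, where 0.596% and 0.0945% of all genes were called, 5 of the markers were higher and 0 lower, or 0 when rescaled. Their summed level was 774, 2181 and 6496 FPKM in hyphae libraries, 3571, 1035 and 2545 FPKM in conidia libraries and 215, 239 and 223 FPKM in control libraries. The hyphae libraries had the same order for Ly6g and for this sum, and conidia 2 was the lowest of its group in both. Relative to the control mean on the log2 scale, Ly6g stood 0.33, −0.24 and 0.34 from the median neutrophil marker in hyphae libraries, −0.86, 0.17 and −0.34 in conidia libraries and −0.14, −0.08 and 0.20 in control libraries. Among the markers S100a9, part of the neutrophil protein calprotectin, was higher by 4.40 after hyphae and by 4.55 after conidia, where the call was lost when rescaled. The granule genes Elane and Mpo were at 0 in some libraries, Elane in control 2 and conidia 1 and Mpo in control 1. The share of neutrophils in the Ly6g level was not tested.

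Ly6i, the closest relative of Ly6a and a protein of myeloid cells, was higher in conidia libraries than in both other groups. It had 2.87, 5.23 and 4.05 FPKM in hyphae libraries, 89.7, 18.7 and 40.5 FPKM in conidia libraries and 3.63, 2.67 and 2.47 FPKM in control libraries. The lowest conidia library lay above every hyphae and control library, and the hyphae and control libraries overlapped. The log2 difference was 0.35 (SE 0.46, adjusted p = 0.527) for hyphae against control and 3.43 (SE 0.46, adjusted p = 0.0244) for conidia against control, the rank 24 from the top of 13761 genes. For hyphae against conidia it was −3.08 (SE 0.46, adjusted p = 0.000736), the rank 9 from the bottom, and −2.80 when rescaled. The conidia call held when rescaled (3.49, adjusted p = 0.0453). It was lost without control 1 (adjusted p = 0.108), control 2 (0.120), control 3 (0.0915), conidia 1 (0.0709), conidia 3 (0.155) or hyphae 2 (0.0637), while the difference stayed between 2.88 and 3.98. The difference between hyphae and conidia passed without any single library, with an adjusted p of at most 0.00396.

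Ly6i did not follow Ly6a. Its level was 0.469, 0.927 and 0.656% of that of Ly6a in hyphae libraries, 12.1, 4.08 and 5.55% in conidia libraries and 1.32, 0.810 and 0.816% in control libraries. The hyphae libraries thus combined a Ly6a level above control with Ly6i values that overlapped with control.

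Ly6e, a widely expressed member that interferons induce and that restricts some viruses, was the most abundant gene of the family in control lungs. It had 623, 688 and 574 FPKM in hyphae libraries, 991, 841 and 978 FPKM in conidia libraries and 624, 732 and 657 FPKM in control libraries. Every conidia library exceeded every hyphae and control library, and hyphae and control overlapped. The log2 difference was −0.10 (SE 0.12, adjusted p = 0.483) for hyphae against control, with the other sign when rescaled, 0.33 (adjusted p = 0.0654). It was 0.48 (SE 0.12, adjusted p = 0.0865) for conidia against control, or 0.56 (adjusted p = 0.0234) without conidia 2. For hyphae against conidia it was −0.58 (SE 0.12, adjusted p = 0.0029), and this call was lost when rescaled (−0.24, adjusted p = 0.176). The ratio of Ly6a to Ly6e, which no scaling of a library can change, was 0.982, 0.820 and 1.08 in hyphae libraries, 0.749, 0.546 and 0.747 in conidia libraries and 0.442, 0.450 and 0.461 in control libraries. The 3 groups did not overlap in this ratio.

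Genes induced by interferons were counted beside Ly6a and Ly6e. Of 22 type I interferon stimulated genes, 3 were called higher and 10 lower for hyphae against control, or 4 and 5 when rescaled. Of all genes 14.9% and 50.0% were called, or 30.0% and 29.3% when rescaled. The list had 1 higher and 0 lower for conidia against control, beside 0.596% and 0.0945% of all genes. For hyphae against conidia it had 0 higher and 14 lower, beside 12.7% and 42.5% of all genes. When rescaled the counts for hyphae against conidia were 2 and 11, beside 25.4% and 25.4%. The nucleic acid sensor Zbp1 was the gene called after conidia (1.35, adjusted p = 0.0244), and the antiviral Oasl2 differed by −2.38 for hyphae against conidia. The summed level of the list was 219 to 438 FPKM after hyphae, 405 to 569 after conidia and 393 to 435 after saline. Of 18 interferon-gamma inducible genes, 3 were called higher and 7 lower for hyphae against control, or 5 and 3 when rescaled. The shares of all genes for that comparison were again 14.9% and 50.0%, or 30.0% and 29.3% when rescaled. For conidia against control 1 gene of the list was called higher, the GTPase Tgtp1 (1.88, adjusted p = 0.0244). The chemokine Cxcl10 was higher by 3.64 and the transcription factor Irf1 by 1.44 for hyphae against control, and Irgm2 differed by −1.91. Their part in the Ly6 levels was not tested.

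Ly6d, an antigen of stratified epithelium and of early B-lineage cells, was lower after hyphae. It had 3.97, 7.65 and 7.97 FPKM in hyphae libraries, 3.55, 19.8 and 5.08 FPKM in conidia libraries and 19.3, 24.4 and 13.6 FPKM in control libraries. All hyphae libraries lay below all control libraries, and conidia 2 lay within the control range while the other conidia libraries lay below it. The log2 difference was −1.43 (SE 0.52, adjusted p = 0.0367) for hyphae against control and −1.24 (SE 0.52, adjusted p = 0.219) for conidia against control. The hyphae call was lost when rescaled (−1.04, adjusted p = 0.107) and without control 1 (adjusted p = 0.0862), control 2 (0.109), hyphae 1 (0.113), hyphae 2 (0.0607) or hyphae 3 (0.0508). Without conidia 2 the conidia difference was −1.90 (adjusted p = 0.0115).

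B cell markers ran alongside Ly6d in the libraries. Of 11 tested, 10 were called lower for hyphae against control, or 5 when rescaled. Of all genes 50.0% were called lower and 14.9% higher there, or 29.3% and 30.0% when rescaled. For conidia against control 0 of the B cell markers passed in limma, beside 0.596% and 0.0945% of all genes called. Of these markers 8 had an unadjusted p under 0.05, a count given without its background over all genes. Their summed level was 35.7, 70.2 and 90.8 FPKM in hyphae libraries, 72.8, 182 and 74.2 FPKM in conidia libraries and 213, 228 and 132 FPKM in control libraries, with no marker at 0. Conidia 2 again stood with the control libraries. Of 11 T cell markers 7 were called lower for hyphae against control, or 6 lower and 1 higher when rescaled, beside the same shares of all genes. For conidia against control 0 of the T cell markers passed in limma, beside 0.596% and 0.0945% of all genes called. Of these markers 1 had an unadjusted p under 0.05. The summed level of the T cell markers was 29.2 to 40.8 FPKM after hyphae and 52.2 to 65.2 after saline. It was 32.6, 67.7 and 32.4 FPKM in conidia libraries 1, 2 and 3. Conidia 2 thus lay close to control here too, apart from the other conidia libraries, so this pattern was not particular to B cell markers. Of 13 markers of squamous or basal epithelium in the files, 3 were tested and none was called in any comparison as deposited. When rescaled 1 of them, Sprr1a, was called higher for hyphae against control (1.63, adjusted p = 0.0394). The summed level of the 13 markers was 21.8 to 39.8 FPKM after hyphae, 11.8 to 27.3 after conidia and 5.62 to 29.2 after saline. In hyphae libraries Sprr1a alone had 27.0, 19.9 and 34.8 FPKM, so the sum there mostly follows that gene. Krt6a and Krtdap were at 0 in 7 and 8 of the 9 libraries. The part of B cells in the Ly6d level was not tested.

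The remaining members were low. Ly6g6c, a little studied gene of the MHC class III region, had 7.42, 3.46 and 2.71 FPKM in hyphae libraries, 2.19, 4.55 and 3.32 FPKM in conidia libraries and 9.45, 7.12 and 6.03 FPKM in control libraries. The conidia libraries lay below the control libraries, and hyphae 1 lay within the control range. Its log2 difference was −0.70 (SE 0.32, adjusted p = 0.0826) for hyphae against control and −0.99 (SE 0.32, adjusted p = 0.143) for conidia against control. The hyphae difference was −1.05 (adjusted p = 0.00657) without hyphae 1 and −0.46 (adjusted p = 0.250) without hyphae 3. When rescaled it was −0.34 (adjusted p = 0.335). Ly6k, known from sperm and testis, averaged 0.687 FPKM in hyphae, 1.51 in conidia and 1.46 in control libraries, with all groups overlapping, and was not called in any comparison or with any single library left out, where its lowest adjusted p was 0.0977. Ly6h, a brain protein that acts on nicotinic receptors, stayed between 0.06 and 0.38 FPKM in the 9 libraries and did not pass the filter on low values, so it was not tested.

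Over the 9 genes tested, 3 were called higher and 1 lower for hyphae against control, against 14.9% and 50.0% of all genes. When rescaled 4 were higher and 0 lower, against 30.0% and 29.3%. For conidia against control 2 were called higher and 0 lower, against 0.596% and 0.0945% of all genes, and when rescaled 1 and 0, against 0.298% and 0.0436%. For hyphae against conidia 0 were called higher and 2 lower, against 12.7% and 42.5%, and when rescaled 0 and 1, against 25.4% and 25.4%. The median log2 difference of the 9 genes was 0.35 for hyphae against control, 0.48 for conidia against control and −0.08 for hyphae against conidia, beside −0.37, −0.07 and −0.29 over all genes. The genes were chosen on these same values, so nothing is read from the counts. The comparisons of hyphae and of conidia with control share the control libraries.

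**Figure D3:**
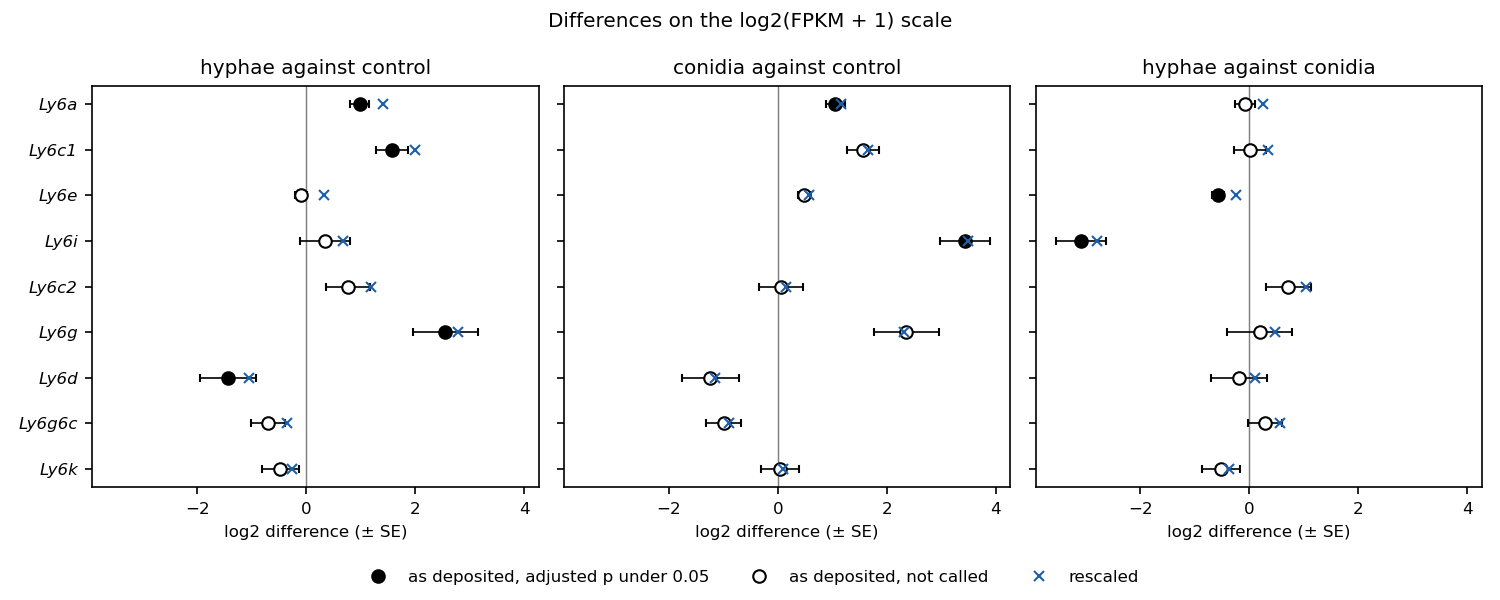
Log2 differences of the 9 Ly6 genes tested in the 3 comparisons, on the log2(FPKM + 1) scale (circles as deposited, with SE; filled where the adjusted p is under 0.05; crosses rescaled). Ly6i stands at 3.43 for conidia against control and at −3.08 for hyphae against conidia, and rescaling turns the sign of Ly6e for hyphae against control and of Ly6a and Ly6d for hyphae against conidia.

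**Figure D4:**
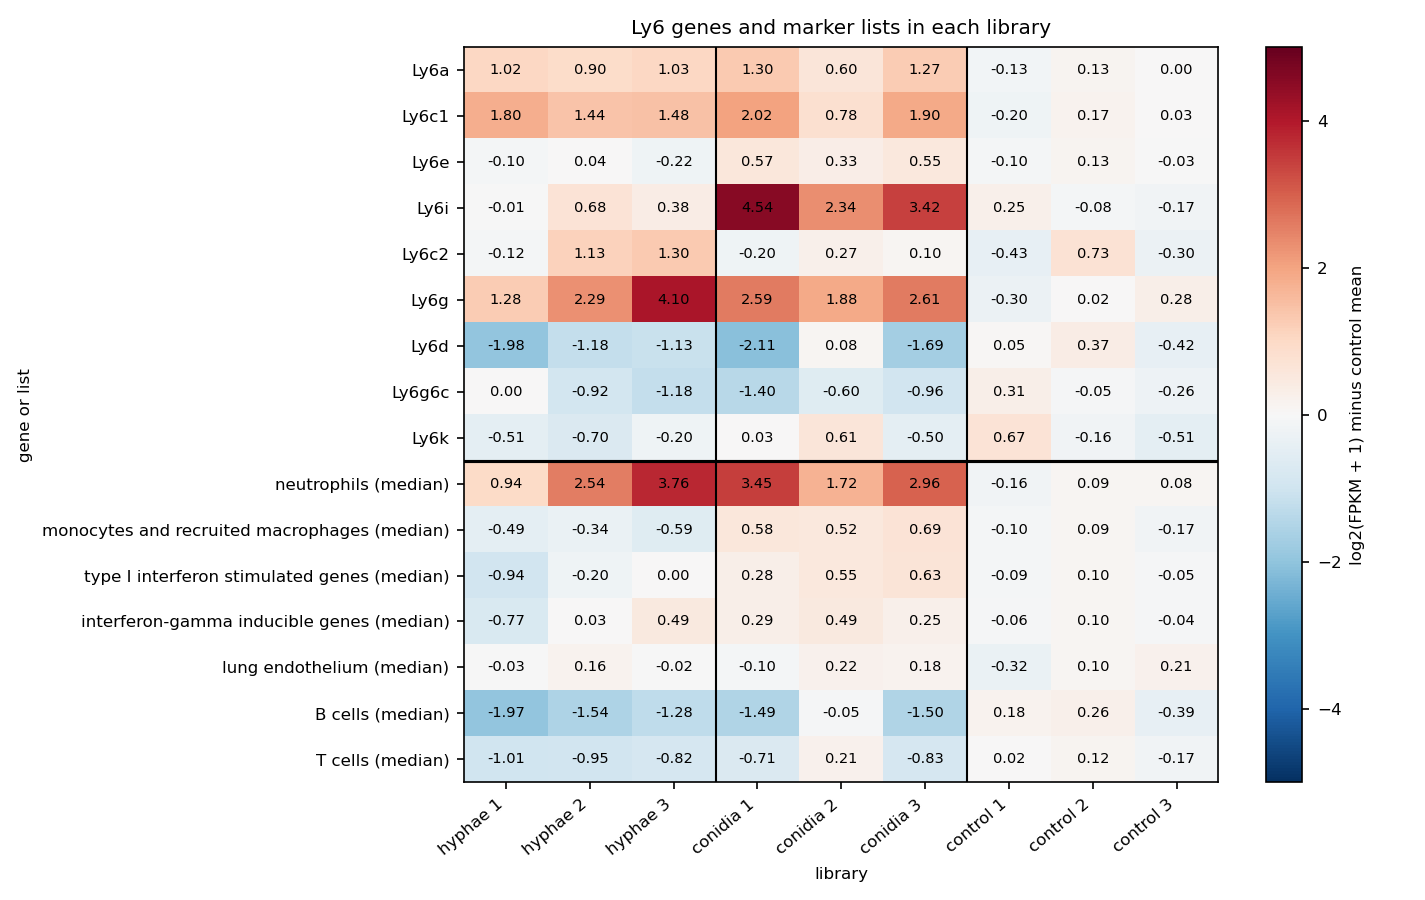
Log2(FPKM + 1) of each Ly6 gene, and the median of each marker or interferon list, minus the control mean, in each library. Ly6g and the neutrophil median are both highest in hyphae 3, at 4.10 and 3.76, and conidia 2 stands near control for Ly6d, at 0.08, and for the B cell median, at −0.05.

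The libraries of a group were not alike for these genes. Conidia 2 had the lowest Ly6a, Ly6c1, Ly6e, Ly6g and Ly6i of the conidia libraries and the highest Ly6c2, Ly6d, Ly6g6c and Ly6k. Without it 5 members were called for conidia against control, and 1535 of all genes in place of 82 higher and 13 lower. Without hyphae 1 there were 4 members and 233 genes. With any control library, conidia 1, conidia 3 or hyphae 2 left out, 0 members were called in limma, with 5 to 7 of the 9 below an unadjusted p of 0.05. In those same settings 0 to 7 of all 13761 genes were called, and 1555 to 2631 had an unadjusted p under 0.05. Hyphae 1 had the lowest Ly6c2, Ly6d, Ly6g and Ly6i of the hyphae libraries and the highest Ly6c1 and Ly6g6c.

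For each member the 3 genes with the most similar pattern were listed by the mean absolute gap in log2(FPKM + 1) over the 9 libraries, after each gene's own mean was removed. Ly6i lay nearest to Wfdc17 (gap 0.26) and to Timp1, an inhibitor of matrix metalloproteinases (gap 0.27), and then to the serpin Serpina3m. Timp1 averaged 18.0 FPKM in hyphae, 167 in conidia and 14.4 in control libraries, while Ly6i averaged 4.05 ± 1.18 FPKM in hyphae, 49.7 ± 36.4 in conidia and 2.92 ± 0.62 in control libraries (SD, n = 3 each). Ly6g lay nearest to Ifitm6 (gap 0.29), the gelatinase Mmp9 and the inhibitory receptor Lilrb4a. Ly6d lay nearest to the MHC class II modulator H2-Ob (gap 0.12) and to the lymphocyte receptors Cd22 and Cd2. Ly6e lay nearest to the ubiquitin ligase Trim25 (gap 0.06), then to Dcun1d1 and Phf23. For Ly6a the nearest genes were Marcks (gap 0.09), Fam71f2 and Fkbp14, and for Ly6c1 Myrip (gap 0.17), Tmem37 and Ampd3. For Ly6c2 they were Klhl6, Plau and Socs1, for Ly6g6c Aldh1a1, Asgr1 and Six4, and for Ly6k Fxyd6, Cldn22 and Scara3.

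The promoters of Ly6c1, Ly6c2 and Ly6g are shown because these relatives stood at different levels, although the split between Ly6c1 and Ly6c2 is uncertain and no test compared their differences. RefSeq tables (GRCm38.p6) held promoters of 4 of the 10 members, each a stretch of 300 bases over the start site, and the first entry of these 3 genes reads:
Ly6c1 promoter, chr15:75048788-75049087, minus strand: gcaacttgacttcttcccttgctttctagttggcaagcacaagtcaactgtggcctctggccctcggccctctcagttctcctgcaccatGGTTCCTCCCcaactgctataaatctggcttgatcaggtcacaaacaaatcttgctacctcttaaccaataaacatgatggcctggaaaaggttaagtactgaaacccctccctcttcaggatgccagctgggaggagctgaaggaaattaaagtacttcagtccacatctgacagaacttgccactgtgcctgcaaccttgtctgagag
Ly6c2 promoter, chr15:75111922-75112221, minus strand: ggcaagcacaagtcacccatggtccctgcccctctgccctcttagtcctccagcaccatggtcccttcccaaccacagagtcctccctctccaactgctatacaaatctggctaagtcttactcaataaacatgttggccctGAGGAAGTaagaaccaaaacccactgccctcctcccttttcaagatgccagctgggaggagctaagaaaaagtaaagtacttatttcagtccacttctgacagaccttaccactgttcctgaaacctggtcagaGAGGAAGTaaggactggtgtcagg
Ly6g promoter, chr15:75155011-75155310, plus strand: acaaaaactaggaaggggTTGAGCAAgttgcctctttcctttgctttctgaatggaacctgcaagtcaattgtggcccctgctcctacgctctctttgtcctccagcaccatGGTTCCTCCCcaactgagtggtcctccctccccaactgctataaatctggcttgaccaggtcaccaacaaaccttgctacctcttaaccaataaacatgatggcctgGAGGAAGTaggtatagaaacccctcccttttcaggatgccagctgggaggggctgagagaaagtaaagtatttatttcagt
Capitals mark matches, on either strand, to 5 motifs that were searched. They were the interferon response element core (GAAA, any 2 bases, GAAA), the GAS element TTCNNNGAA, a PU.1 core GAGGAAGT, a C/EBP motif TTGCNNAA and an NF-kB motif (GGGA, any 4 bases, CC). No 2 matches in the printed entries overlap. Among 32851 promoters of the same length these occurred in 3.44, 8.30, 3.20, 10.8 and 20.7%. The Ly6c1 entry held an NF-kB match at −160 from the start site, and the Ly6c2 entry PU.1 matches at −108 and 26. The Ly6g entry held a C/EBP match at −232, an NF-kB match at −138 and a PU.1 match at −31. The second entries, from other start sites, add a PU.1 match (−127) and an NF-kB match (−82) for Ly6c1. They also add an NF-kB match (37) for Ly6c2 and a PU.1 match (26) for Ly6g. PU.1 and NF-kB matches thus occur for all 3 genes. Neither interferon motif occurred in any entry of Ly6c1, Ly6c2, Ly6g or Ly6g6c. A match describes letters in this window and was not tied to binding of a factor.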

How the data were processed

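Poly(A) RNA of whole mouse lung was measured in 9 libraries. The authors deposited FPKM values, 1 file per library, per the file headers. The submitters' processing notes name HISAT, Bowtie2 and mm9 with no role or version, and what computed FPKM was not given in the sources used here. The files give no counts, so depth was not determined and no counting interval is printed.

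Members and lists were chosen with earlier results of these data known. Values were taken as log2(FPKM + 1), and a gene was tested if 3 or more of the 9 libraries reached 1 FPKM, which held for 13761 of 18984 genes. One limma-trend fit (R 4.3.3, limma 3.58.1, robust option) held all 9 libraries, with two-sided p-values adjusted by Benjamini and Hochberg over all genes tested and called under 0.05. The scripts were tested on simulated data with 200 changed genes. Named genes were all members, the 3 genes nearest to each and any other LU domain gene. At most 4 called genes were named per other list and comparison. Markers were also named for being at 0 or for a large part in a summed level. Same-numbered libraries did not deviate together (correlations −0.31 to 0.42) and were not paired. Sequences came from GENCODE vM21 and RefSeq, of a build other than mm9, and were compared with Biopython 1.88. Alternatives changed the scaling, pseudocount (0.1), filter, samples and variance model.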

Additional observations from a re-analysis of the deposited data

Results flagged for a closer look

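Ly6i differed between the fungal groups under the same comparison with control. The log2 difference for hyphae against conidia was −3.08 (SE 0.46, adjusted p = 0.000736), and each of the 3 hyphae libraries lay below each of the 3 conidia libraries. Ly6e differed likewise, by −0.58 (SE 0.12, adjusted p = 0.0029), with the same separation of libraries, but by −0.24 with an adjusted p of 0.176 when rescaled.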

How the results depend on the processing

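The number of members called for conidia against control was 2 as reported, and 1 when rescaled, with no filter on low values or with the replicate block, and ran from 0 to 5 when single libraries were left out. Of these the 0 occurred without conidia 1, conidia 3, hyphae 2 or any control library, in limma, settings in which 0 to 7 of all 13761 genes were called. With the 2 groups alone the count stayed at 2, with Ly6g (adjusted p = 0.0359) in place of Ly6a (0.0774). For hyphae against conidia 2 became 1 when rescaled, and for hyphae against control the 4 ran from 3 to 5. The replicate block, in which numbers do not pair libraries, gave 5 calls for hyphae against control, 1 for conidia against control and 2 for hyphae against conidia. It added Ly6c2 for hyphae against control (adjusted p = 0.0420) and took Ly6a for conidia against control (adjusted p = 0.0818). Rescaling reversed Ly6e for hyphae against control to 0.33, and Ly6a and Ly6d for hyphae against conidia to 0.26 and 0.10. Leaving out single libraries reversed differences that were not called. For conidia against control Ly6c2 ran from −0.16 to 0.42 and Ly6k from −0.23 to 0.38. For hyphae against conidia Ly6a ran from −0.302 to 0.0435, Ly6c1 from −0.39 to 0.23, Ly6d from −0.63 to 0.47, Ly6g from −0.58 to 0.83 and Ly6g6c from −0.0615 to 0.530. No depth was known, and values near 0, as for Ly6h and Ly6g in control libraries, are the least precise.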

Other observations

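Other genes of the LU domain superfamily were also measured. Of 27 in the files 12 were tested, and 3 were called higher and 7 lower for hyphae against control, or 4 and 4 when rescaled. Of all genes 14.9% were called higher and 50.0% lower there, or 30.0% and 29.3% when rescaled. Spaca4, called lower after hyphae, reached 1 FPKM only in the control libraries, so its call only describes it. For conidia against control 0 of the 12 passed in limma, beside 0.596% and 0.0945% of all genes called. Of the 12, 6 had an unadjusted p under 0.05, a count given without its background over all genes. For hyphae against control Plaur, the urokinase receptor, was higher by 2.41 (adjusted p = 0.00138), Gpihbp1 by 0.92 and Ly6g5b by 0.86. Ly6g6d (−1.49), Lynx1, a modulator of nicotinic receptors (−1.37), and Ly6g6e (−1.29) were lower, also when rescaled. The secreted Slurp1 differed by −0.77 and Lypd2 by −1.10, and both missed the threshold when rescaled. The complement regulator Cd59a differed by −0.40, and by 0.00 when rescaled.

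Of 29 genes for making and attaching the GPI anchor, 24 were called lower and 1 higher for hyphae against control, or 13 and 3 when rescaled. Of all genes 50.0% were called lower and 14.9% higher, or 29.3% and 30.0% when rescaled. The list had 0 calls in limma for conidia against control, beside 0.596% and 0.0945% of all genes. Of its genes 4 had an unadjusted p under 0.05, a count given without its background over all genes. Pigh (−1.65) and Pigc (−1.57), subunits of the enzyme that starts the anchor, were the lowest, and Dpm1, named after its value was seen, was the 1 called higher (0.31). The median of the list was −0.63 beside −0.37 over all genes.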
